A study of Mus musculus with 10 samples.

Results

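Signals were examined for 10 genes that regulate histone and arginine methylation during the reprogramming of primordial germ cells (PGCs). The cells were mouse ESCs, PGCs derived from ESCs *in vitro* (iPGCs) and somatic cells of embryoid bodies (EBs). The genes were *Prmt5*, *Wdr77*, *Ehmt1*, *Ehmt2*, *Ezh1*, *Ezh2*, *Eed*, *Suz12*, *Jarid2* and *Kdm6b*, chosen by name among 18193 genes on the array. Every probe set whose only gene symbol in the platform annotation is one of these names was read, which gave 26 of 45037 probe sets. Of these, 24 passed a filter on dim signals, as did 26368 probe sets in all, and each of the 10 genes kept at least 1. The brightest tested probe set stands for a gene below, and these 10 probe sets exceeded background on all 10 arrays. Their lowest signal on any array was 154, above the highest array median of 91.6, so none of them was tested through only 1 group. The filter left out 1 dim probe set each of *Ezh1* and *Eed*, and 1 further probe set that carries *Kdm6b* among several symbols was not used.

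Affymetrix mouse genome arrays were used to measure RNA of 5 FACS-sorted populations, 2 arrays per population and 10 in all. ESCs of the V6.5 line (129xBL6 F1) were taken at day 0 as cKit+/SSEA1+ cells and had been maintained on mouse embryonic fibroblasts. The other populations came from day 6 hanging-drop EBs, which had been depleted of these feeder cells and grown without LIF. They were SSEA1+/cKit bright iPGCs and SSEA1-/cKit- somatic cells of V6.5, and Oct4-gfp+/cKit bright iPGCs and Oct4-gfp-/cKit- somatic cells of a line of mixed background that carries a Gfp reporter of Oct4. Line, background and sort marker therefore change together, each line is a single ESC line, and no ESC array of the Oct4-Gfp line was analysed here. Nothing in the labels says that replicates came from separate differentiations, so p-values measure the spread between these arrays, which may be technical. In such sorted bulk RNA, fewer cells that transcribe a gene and less RNA per cell cannot be told apart.

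Methylation of lysine 27 on histone H3 (H3K27) is written by Polycomb repressive complex 2 (PRC2), in which EZH1 or EZH2 is the enzyme, EED binds the mark, SUZ12 is the scaffold and JARID2 helps to place the complex on chromatin. KDM6B removes methyl groups from H3K27. EHMT1 (GLP) and EHMT2 (G9a) act as a heterodimer that adds methyl groups to lysine 9 of the same histone (H3K9), a mark of silent euchromatin. PRMT5, with its partner WDR77 (MEP50), symmetrically dimethylates arginines of histones H2A and H4 and of splicing proteins. In the embryo, migrating PGCs are known for losing H3K9 dimethylation and gaining H3K27 trimethylation, and PRMT5 is known as a partner of the germ cell repressor BLIMP1, which *Prdm1* encodes.

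Marker genes separated the sorted cell types. The summed signal of *Pou5f1*, *Sox2*, *Nanog* and *Dppa5a* was 30720 to 32978 in ESCs, 25695 to 27937 in iPGCs and 454 to 1484 on the somatic arrays, and that of 7 iPGC markers, *Kit* and *Prdm1* among them, was 10615 to 11365, 20264 to 20897 and 1487 to 2278. In somatic cells *Prdm14* and *Dazl* were at or below background, the 95th percentile of 44 olfactory receptor probe sets (12.6 to 25.4 per array). The 5 markers of day 6 somatic cells on the array (of 6 listed), *Hand1*, *Tbx20*, *Gata4*, *Gata6* and *Hoxb1*, summed to 86.7 to 169 in ESCs, 475 to 853 in iPGCs and 13233 to 15587 on the somatic arrays, and none of them was at background in a whole group. Of these, 3 were higher in iPGCs than in ESCs (limma), *Tbx20* by 3.19, *Hand1* by 2.02 and *Gata6* by 1.26 on the log2 scale, so this list moved with every comparison of iPGCs with ESCs. Of 12 fibroblast markers, 11 are on the array. They summed to 984 to 1141 in ESCs, 499 to 813 in iPGCs and 10652 to 16381 on the somatic arrays. *Twist2* was at background in ESCs, *Lox*, *Postn*, *Dcn* and *Lum* in iPGCs, and *Lox* on the somatic arrays. Of 9 tested against ESCs (limma), 7 were called higher on the somatic arrays and 2 lower, *Lox* and *Thy1*. *Thy1* averaged 435 for ESCs, 146 for iPGCs and 217 for the somatic arrays, and *Lox* 163, 5.71 and 13.1. The 7 cycling cell markers measured summed to 46348 to 47704, 39983 to 42538 and 34217 to 38684. The *Gapdh* control ratio of 3′ over 5′ signal, a measure of RNA integrity and amplification, lay at 1.28 to 1.30 on the ESC arrays, 1.51 to 2.37 on the iPGC arrays and 1.65 to 2.05 on the somatic arrays, so it moved with day and with every comparison against ESCs. Within iPGCs the ratio also moved with line, at 1.507 and 1.627 in V6.5 and 2.025 and 2.372 in Oct4-Gfp. The somatic, fibroblast and cycling markers also moved with cell type, and their part in the values below was not tested.

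Among the 10 genes, those of PRC2 and the *Prmt5* complex had higher signals in iPGCs than in the somatic arrays. *Ehmt1*, *Ehmt2* and the demethylase gene *Kdm6b* had lower ones. With limma and Benjamini-Hochberg adjustment over 26368 probe sets, all 10 genes passed an adjusted p of 0.05 between iPGCs and somatic cells, 7 higher and 3 lower in iPGCs. Such calls were common, since 63.4% of 12207 genes tested passed in either direction, 33.7% higher and 29.8% lower. The median log2 change of the 10 genes was 0.58, and that of all genes was 0.07. Against ESCs, 5 of 10 genes passed, 3 higher and 2 lower, where 45.4% of all genes did (24.5% higher and 20.9% lower), and the median log2 change was 0.01 against 0.04 for all genes. Between somatic cells and ESCs, 8 of 10 passed, 2 higher and 6 lower in somatic cells, where 67.1% of all genes did (32.5% higher and 34.6% lower). The comparisons share arrays and are not independent of each other. The count of iPGCs against ESCs lay between 2 and 4 when any 1 array was left out. With the *Gapdh* ratio as a covariate 0 of 10 genes passed against ESCs in limma, as did 0 of 26368 probe sets (4880 had an unadjusted p under 0.05), whereas all 10 genes still passed between iPGCs and somatic cells.

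**Figure D1:**
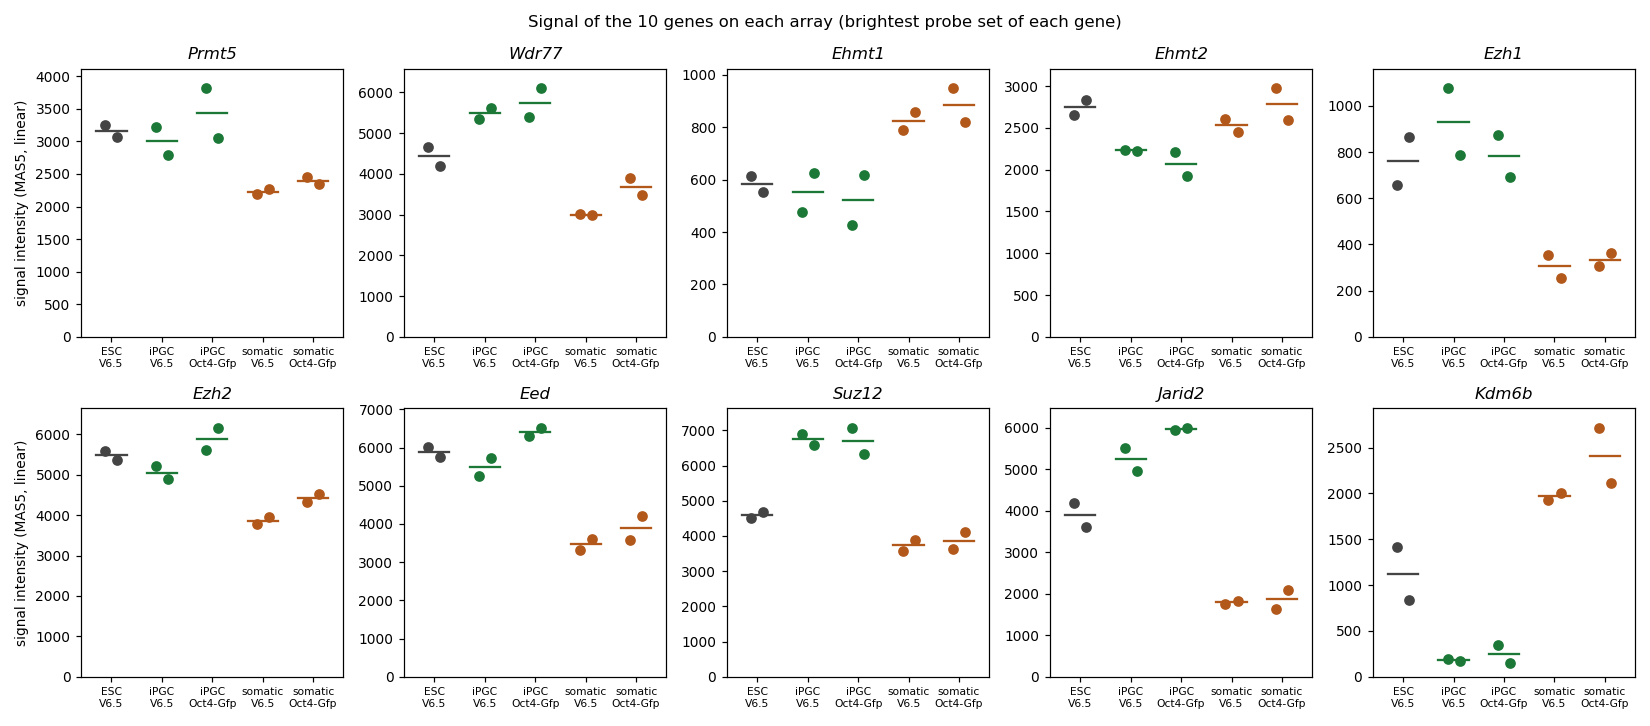
MAS5 signal intensity (linear y axis from 0) of the brightest probe set of each of the 10 genes, by population on the x axis, with 1 point per array and a bar at the mean of 2 arrays. *Ezh1*, *Jarid2* and *Suz12* lie higher in all 4 iPGC arrays than in all 4 somatic arrays, and *Kdm6b* and *Ehmt1* lie lower.

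**Figure D2:**
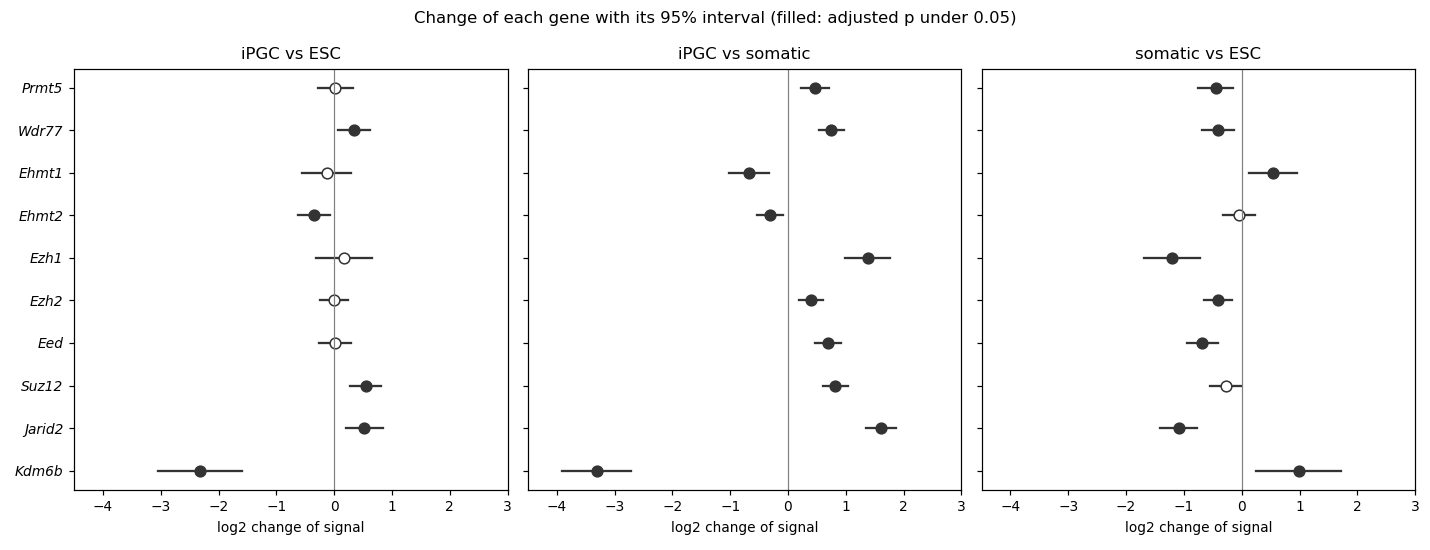
Log2 change of signal (x axis) with its 95% interval for each gene in 3 comparisons, where filled points have a limma adjusted p under 0.05. For iPGCs against ESCs the intervals of *Kdm6b*, *Suz12*, *Jarid2*, *Wdr77* and *Ehmt2* exclude 0, with *Kdm6b* farthest at -2.32. Those of iPGCs against somatic cells lie on either side of 0.

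Promoter sequence is shown for 4 genes that stand for the patterns described below. *Suz12* was higher in iPGCs than in both other cell types, *Ezh2* and *Prmt5* were higher than in somatic cells alone, and *Ehmt1* was lower than in somatic cells. Each line gives the 250 bases before the RefSeq start site on build GRCm38.p6, 5′ to 3′ on the gene's strand, with motif matches on either strand in capitals: CCAAT boxes (CCAAT or its reverse, ATTGG) and E2F sites (TTTCCCGC, TTTCGCGC, TTTGCCGC or TTTGGCGC).
*Suz12*, chr11:79992856-79993105, plus strand: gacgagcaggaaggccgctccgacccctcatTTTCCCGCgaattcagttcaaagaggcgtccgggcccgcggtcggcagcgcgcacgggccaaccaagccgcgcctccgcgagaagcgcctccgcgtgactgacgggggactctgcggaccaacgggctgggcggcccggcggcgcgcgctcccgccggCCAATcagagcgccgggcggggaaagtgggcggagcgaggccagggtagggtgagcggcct
*Ezh2*, chr6:47595031-47595280, minus strand: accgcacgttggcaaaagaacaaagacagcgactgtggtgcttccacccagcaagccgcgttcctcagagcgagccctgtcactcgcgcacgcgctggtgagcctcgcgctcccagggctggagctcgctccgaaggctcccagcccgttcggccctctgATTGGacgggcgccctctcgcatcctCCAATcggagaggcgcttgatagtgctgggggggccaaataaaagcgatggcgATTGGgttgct
*Prmt5*, chr14:54517471-54517720, minus strand: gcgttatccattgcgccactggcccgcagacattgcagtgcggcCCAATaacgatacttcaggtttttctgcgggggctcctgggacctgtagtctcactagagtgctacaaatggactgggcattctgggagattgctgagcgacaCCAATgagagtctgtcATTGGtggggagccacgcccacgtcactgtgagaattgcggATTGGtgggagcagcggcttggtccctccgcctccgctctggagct
*Ehmt1*, chr2:24919610-24919859, minus strand: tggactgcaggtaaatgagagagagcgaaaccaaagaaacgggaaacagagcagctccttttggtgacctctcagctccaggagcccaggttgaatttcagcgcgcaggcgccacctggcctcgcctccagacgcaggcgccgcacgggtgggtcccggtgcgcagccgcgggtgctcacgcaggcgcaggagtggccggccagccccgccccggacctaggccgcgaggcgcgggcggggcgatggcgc
The *Suz12* window holds 1 E2F match, 219 bases before the start site, and 1 CCAAT box 61 bases before it. The *Ezh2* window holds 3 CCAAT boxes and the *Prmt5* window 4, whereas the *Ehmt1* window holds neither motif. Among windows not shown, those of *Ezh1*, *Eed* and *Wdr77* hold neither motif, although these genes also exceeded their somatic level in iPGCs. The *Ehmt2* windows hold neither, and 1 *Jarid2* window holds 1 CCAAT box while the other is without a match. Matches thus lay only in windows of genes higher in iPGCs than in somatic cells, but some such genes had none. No window was listed for *Kdm6b*, which was lower, and a link of matches with direction was not tested. Among 32851 promoters of the same length, 33.8% held a CCAAT box and 1.86% an E2F match. The PRDM1 motif AGNGAAAG was found in 7.3% of promoters and in none of the 11 windows listed for 9 of the 10 genes. These matches are letters in a window and were not tested as binding sites.

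*Suz12*, the gene of the PRC2 scaffold, was higher in iPGCs than in both other cell types. Its signal was 4523 and 4694 in ESCs, 6891 and 6596 in V6.5 iPGCs, 7059 and 6329 in iPGCs of the Oct4-Gfp line, 3578 and 3884 in V6.5 somatic cells, and 3629 and 4114 in Oct4-Gfp somatic cells. All iPGC arrays thus lay above all ESC and somatic arrays. In iPGCs its log2 change was 0.54 ± 0.12 (SE) against ESCs (limma adjusted p = 0.00766) and 0.82 ± 0.09 against somatic cells (adjusted p = 0.000145), the latter 1.77-fold on the offset scale used for the test. All 6 tested *Suz12* probe sets passed in the same direction, with log2 changes of 0.54 to 1.36 against ESCs and 0.82 to 1.40 against somatic cells. The call against ESCs for the brightest probe set was lost without ESC replicate 1 (adjusted p = 0.0560), with median centring (0.0567) and with the *Gapdh* covariate (0.376). Somatic cells against ESCs gave -0.28 (adjusted p = 0.0644).

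*Jarid2*, which encodes a PRC2 accessory protein, showed the largest difference among the 5 PRC2 genes between iPGCs and somatic cells. Its signal was 4183 and 3613 in ESCs, 5510 and 4951 in V6.5 iPGCs, 5935 and 5980 in iPGCs of the Oct4-Gfp line, 1740 and 1833 in V6.5 somatic cells, and 1631 and 2099 in Oct4-Gfp somatic cells. The 3 cell types did not overlap. *Jarid2* had a log2 change of 1.61 ± 0.11 against somatic cells (limma adjusted p = 1.01e-05), a fold of 3.05, and 0.52 ± 0.14 against ESCs (adjusted p = 0.0191). Somatic cells were lower than ESCs by 1.09 ± 0.14 on the log2 scale (adjusted p = 0.000265). The other probe sets of *Jarid2* differed in the comparison with ESCs, at 0.90 (adjusted p = 0.00668) for 1422697_s_at and -0.03 (adjusted p = 0.866) for 1450710_at, while both exceeded the somatic level in iPGCs, by 2.26 and 1.92. The call against ESCs for the brightest probe set was lost without ESC replicate 2 (adjusted p = 0.150) and with median centring (0.0989), and with the *Gapdh* covariate the change was 0.19 (0.772).

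The PRC2 enzyme genes were called in the same comparisons, with larger values for *Ezh1* than for *Ezh2*. *Ezh1* signal was 655 and 865 in ESCs, 1075 and 788 in V6.5 iPGCs, 874 and 693 in iPGCs of the Oct4-Gfp line, 356 and 256 in V6.5 somatic cells, and 305 and 362 in Oct4-Gfp somatic cells. ESC and iPGC arrays overlapped, and the lowest of them lay above the highest somatic array. *Ezh1* was 1.38 ± 0.17 higher on the log2 scale in iPGCs than in somatic cells (limma adjusted p = 0.000222), a fold of 2.60, and 1.21 ± 0.21 lower in somatic cells than in ESCs (adjusted p = 0.00134), a call lost with the *Gapdh* covariate (0.141). Against ESCs the change in iPGCs was 0.17 with a 95% interval of -0.32 to 0.65 (adjusted p = 0.552). Its other tested probe sets disagreed on the comparison with ESCs, at -0.57 (adjusted p = 0.0161) for 1418290_a_at and 0.47 (adjusted p = 0.128) for 1429630_at, and both exceeded the somatic level in iPGCs, by 0.83 and 0.91.

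*Ezh2*, the enzyme of PRC2 in dividing cells, changed less. Its signal was 5585 and 5373 in ESCs, 5209 and 4889 in V6.5 iPGCs, 5627 and 6152 in iPGCs of the Oct4-Gfp line, 3783 and 3947 in V6.5 somatic cells, and 4334 and 4514 in Oct4-Gfp somatic cells. Somatic arrays lay below all others, and the Oct4-Gfp arrays lay above the V6.5 arrays of the same cell type. *Ezh2* had a log2 change of 0.40 ± 0.09 against somatic cells (limma adjusted p = 0.00471), a fold of 1.32, and -0.01 against ESCs with a 95% interval of -0.25 to 0.24 (adjusted p = 0.961). *Ezh2* was lower in somatic cells than in ESCs by 0.40 ± 0.11 on the log2 scale (adjusted p = 0.0106), a call lost with quantile normalization (0.0959), the *Gapdh* covariate (0.135) or without ESC replicate 1 (0.0734). Within each array, log2 *Ezh1* minus log2 *Ezh2* averaged -2.84 in ESCs, -2.66 in iPGCs and -3.64 on the somatic arrays, so the difference between iPGCs and somatic cells was 0.98 larger for *Ezh1* than for *Ezh2*, a description with no test.

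*Eed*, which encodes the subunit that binds methylated H3K27, followed *Ezh2*. Its signal was 6012 and 5754 in ESCs, 5263 and 5726 in V6.5 iPGCs, 6304 and 6504 in iPGCs of the Oct4-Gfp line, 3318 and 3611 in V6.5 somatic cells, and 3583 and 4200 in Oct4-Gfp somatic cells. Again the somatic arrays lay below all others, and ESC and iPGC arrays overlapped. *Eed* had a log2 change of 0.69 ± 0.10 against somatic cells (limma adjusted p = 0.000412), a fold of 1.62, and 0.01 against ESCs with a 95% interval of -0.26 to 0.28 (adjusted p = 0.947). Over the 10 arrays *Eed* and *Ezh2* had a Pearson r of 0.959 on the log2 scale, a description over arrays of 3 cell types.

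*Kdm6b*, the H3K27 demethylase gene, had the largest change of the 10 genes. Its signal was 1416 and 834 in ESCs, 196 and 170 in V6.5 iPGCs, 343 and 154 in iPGCs of the Oct4-Gfp line, 1925 and 2009 in V6.5 somatic cells, and 2709 and 2109 in Oct4-Gfp somatic cells. The order of the cell types was iPGCs, ESCs and somatic cells, without overlap. The log2 change in iPGCs was -3.31 ± 0.26 against somatic cells (limma adjusted p = 1.74e-05), or 9.92-fold lower, and -2.32 ± 0.32 against ESCs (adjusted p = 0.00127), or 5.01-fold lower. The brightest probe set, 1447612_x_at, is of a kind that shares some probes with other sequences. The other 2 tested *Kdm6b* probe sets were dim but also lower in iPGCs than in ESCs, by log2 changes of -1.08 and -1.26, and than in somatic cells, by -1.96 and -1.24. The call against ESCs was lost only with the *Gapdh* covariate (adjusted p = 0.361), among 24 alternatives. Somatic cells were higher than ESCs by 0.99 ± 0.32 (adjusted p = 0.0256), a call lost without ESC replicate 2 (0.215) or without 3 of the somatic arrays in turn (V6.5 replicates 1 and 2 and Oct4-Gfp replicate 1, 0.0518 to 0.0655), and 1 of the dim probe sets showed -0.02.

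**Figure D3:**
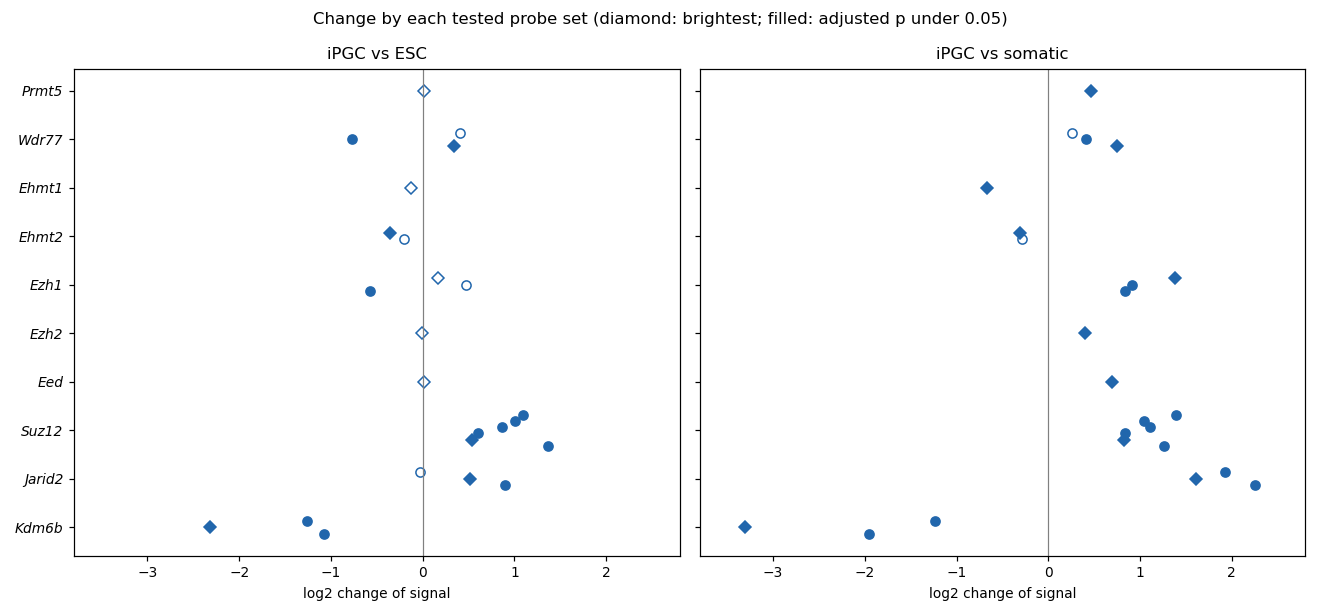
Log2 change of signal (x axis) of each of the 24 tested probe sets, by gene, for iPGCs against ESCs and against somatic cells, where diamonds mark the brightest probe set and filled symbols an adjusted p under 0.05. All 6 *Suz12* and all 3 *Kdm6b* probe sets moved one way, while those of *Wdr77* and *Ezh1* fell on either side of 0 against ESCs.

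The H3K9 methyltransferase genes were lower in iPGCs than in somatic cells, and by less than *Kdm6b*. *Ehmt1* signal was 614 and 551 in ESCs, 477 and 627 in V6.5 iPGCs, 426 and 616 in iPGCs of the Oct4-Gfp line, 790 and 857 in V6.5 somatic cells, and 948 and 822 in Oct4-Gfp somatic cells. All somatic arrays lay above all ESC and iPGC arrays, and the last groups overlapped. *Ehmt1* had a log2 change of -0.67 ± 0.15 in iPGCs against somatic cells (limma adjusted p = 0.00494), or 1.59-fold lower, a call kept under all 24 alternatives. Against ESCs it was -0.13 with a 95% interval of -0.55 to 0.29 (adjusted p = 0.586). Somatic cells were higher than ESCs by 0.54 ± 0.18 (adjusted p = 0.0304), and this call was lost under 9 of 24 alternatives, without either ESC array among them (0.0763 and 0.160).

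*Ehmt2* signal was 2659 and 2838 in ESCs, 2238 and 2225 in V6.5 iPGCs, 2217 and 1921 in iPGCs of the Oct4-Gfp line, 2611 and 2453 in V6.5 somatic cells, and 2973 and 2596 in Oct4-Gfp somatic cells. All 4 iPGC arrays lay below all others, with the second Oct4-Gfp array lowest. Its log2 changes were small, at -0.35 ± 0.12 against ESCs (limma adjusted p = 0.0446) and -0.30 ± 0.10 against somatic cells (adjusted p = 0.0272), or 1.28-fold and 1.23-fold lower. Neither call was firm. The call against ESCs was lost under 15 of 24 alternatives, with adjusted p of 0.0111 to 1.000 over them, and that against somatic cells under 10 of 24 (0.00546 to 0.635). Both were lost without the lowest array (0.105 and 0.0899), and without V6.5 iPGC replicate 1 or 2 or V6.5 somatic replicate 1 or 2 (0.0530 to 0.0868). The call against ESCs was also lost without either ESC array (0.116 and 0.223), and that against somatic cells without Oct4-Gfp somatic replicate 1 (0.0793). A dim second probe set, 1426888_at, did not pass, at -0.20 and -0.29. Within arrays, log2 *Ehmt1* minus log2 *Ehmt2* averaged -2.21 in ESCs, -1.99 in iPGCs and -1.62 on the somatic arrays.

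*Prmt5*, the symmetric arginine methyltransferase gene, exceeded its somatic level in iPGCs and gave no detectable difference from ESCs. Its signal was 3251 and 3072 in ESCs, 3215 and 2792 in V6.5 iPGCs, 3812 and 3054 in iPGCs of the Oct4-Gfp line, 2186 and 2271 in V6.5 somatic cells, and 2453 and 2342 in Oct4-Gfp somatic cells. All somatic arrays lay below all others, and the ESC arrays lay inside the range of the iPGC arrays. The log2 change was 0.47 ± 0.11 against somatic cells (limma adjusted p = 0.00592), a fold of 1.38 that passed under all 24 alternatives, and 0.02 against ESCs with a 95% interval of -0.28 to 0.32 (adjusted p = 0.930). Somatic cells were 0.45 ± 0.13 lower than ESCs on the log2 scale (adjusted p = 0.0167), a call lost without ESC replicate 1 (0.101) or 2 (0.0601) and with the *Gapdh* covariate (0.735).

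*Wdr77*, which encodes the PRMT5 partner, was highest in iPGCs by its brightest probe set. Its signal was 4666 and 4197 in ESCs, 5342 and 5625 in V6.5 iPGCs, 5388 and 6097 in iPGCs of the Oct4-Gfp line, 3010 and 2982 in V6.5 somatic cells, and 3897 and 3478 in Oct4-Gfp somatic cells. The 3 cell types did not overlap. For *Wdr77* the log2 change was 0.75 ± 0.10 against somatic cells (limma adjusted p = 0.000258), a fold of 1.68, and 0.34 ± 0.12 against ESCs (adjusted p = 0.0485). The second value was lost under 19 of 24 alternatives (adjusted p of 0.00689 to 0.949), including the loss of any 1 of the 10 arrays (0.0518 to 0.270), and its sign turned to -0.01 when the probe sets of the gene were averaged. A second probe set, 1430289_a_at, gave 2176 and 2108 in ESCs, 1390 and 1651 in iPGCs of V6.5, and 973 and 1081 in those of Oct4-Gfp, against 978 and 1025 in V6.5 somatic cells and 837 and 902 in Oct4-Gfp somatic cells. It was thus lower in iPGCs than in ESCs, by -0.77 ± 0.12 (adjusted p = 0.00211), and higher than in somatic cells, by 0.41 (adjusted p = 0.00702). The third, 1434552_at, did not pass in either comparison, at 0.40 (adjusted p = 0.100) and 0.26 (adjusted p = 0.164). The direction of *Wdr77* against ESCs thus differed between its probe sets.

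When iPGCs were set against somatic cells of their own line, the direction was the same in V6.5 and Oct4-Gfp for all 10 genes, except *Ehmt2* with median centring. In the V6.5 line 8 of 10 genes passed, 7 higher and 1 lower in iPGCs, where 51.3% of all genes did (27.2% higher and 24.1% lower). *Prmt5* in V6.5 passed narrowly (adjusted p = 0.0499) and was lost under 17 of 24 alternatives, and *Ezh2* (adjusted p = 0.0340) under 13 of 24, and the count was 6 to 9 when any 1 array was left out. In the Oct4-Gfp line 10 of 10 passed, 7 higher and 3 lower, where 50.4% did (25.7% higher and 24.7% lower), and without Oct4-Gfp somatic replicate 1 this count was 6. Of the Oct4-Gfp calls, *Ehmt2* was lost under 12 of 23 alternatives, *Ezh2* under 7, *Prmt5* under 6 and *Ehmt1* under 4. The other calls of this line were kept under all 23. *Ezh1* had a log2 change of 1.56 ± 0.24 in V6.5 and 1.19 ± 0.24 in Oct4-Gfp, *Jarid2* 1.54 and 1.68 (SE 0.16 each), and *Kdm6b* -3.33 and -3.29 (SE 0.37 each). *Ehmt1* was -0.58 ± 0.21 in V6.5 (adjusted p = 0.0544) and -0.77 ± 0.21 in Oct4-Gfp (adjusted p = 0.0178). *Ehmt2* was -0.18 ± 0.14 in V6.5 (adjusted p = 0.324) and -0.43 ± 0.14 in Oct4-Gfp (adjusted p = 0.0345), and the latter turned to 0.02 (adjusted p = 0.937) when arrays were centred on their medians.

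No gene passed the test of the difference between lines in this contrast, for which 0.00819% of all genes did (1 gene, with 2758 of 26368 probe sets at an unadjusted p under 0.05). The largest differences among the 10 genes were -0.37 for *Ezh1*, with a 95% interval of -1.16 to 0.42, and -0.25 for *Ehmt2*, with one of -0.69 to 0.20. With median centring both turned sign, to 0.10 and 0.23. For *Prmt5* the difference was 0.08 (-0.41 to 0.57) and for *Kdm6b* 0.03 (-1.16 to 1.23), so differences of the size of many of the changes themselves lie inside these intervals. Between iPGCs of both lines 0 of 10 genes and 0% of all genes passed, with 5526 probe sets at an unadjusted p under 0.05, and the largest log2 change of Oct4-Gfp over V6.5 iPGCs was 0.31 ± 0.37 for the brightest probe set of *Kdm6b*. This value rested on the first Oct4-Gfp array, without which it was -0.23 (adjusted p = 0.721), and the other *Kdm6b* probe sets gave -0.48 and -0.59 (adjusted p = 0.294 and 0.0854). Between somatic cells of both lines 0 of 10 genes passed, where 0.0737% of all genes did (0.0328% higher and 0.041% lower), and the largest change was 0.30 ± 0.14 for *Wdr77* (adjusted p = 0.419).

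Against ESCs of the same line, 2 of 10 genes passed in V6.5 iPGCs, where 30.1% of all genes did (17.3% higher and 12.8% lower). *Suz12* was higher by 0.55 ± 0.13 (limma adjusted p = 0.0206) and *Kdm6b* lower at -2.48 ± 0.37 (adjusted p = 0.00339). The *Suz12* call was lost without either ESC array (0.0951 and 0.0837) or without either V6.5 iPGC array (0.0693 and 0.0506). *Jarid2* was 0.42 ± 0.16 (adjusted p = 0.0841), *Wdr77* 0.31 ± 0.14 (adjusted p = 0.126) and *Ehmt2* -0.30 ± 0.14 (adjusted p = 0.141), close to their values over both lines. *Prmt5*, *Ezh2*, *Eed* and *Ehmt1* lay between -0.12 and -0.08.

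**Figure D4:**
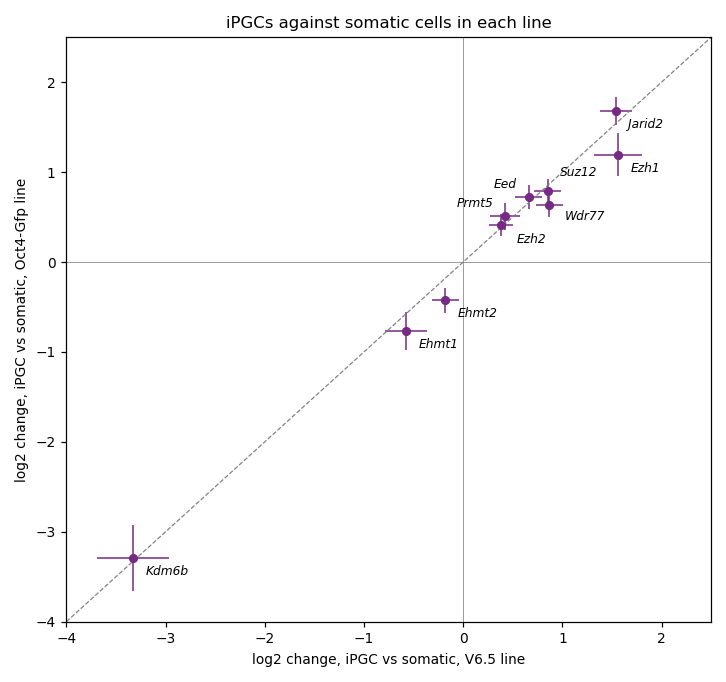
Log2 change of iPGCs against somatic cells in the V6.5 line (x axis) and in the Oct4-Gfp line (y axis), 1 point per gene with bars of 1 SE, and a dashed line where both are equal. The 10 genes lie along this line, from *Kdm6b* near -3.3 in both to *Jarid2* at 1.54 and 1.68.

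Scaling moved the changes of all genes together. Centring each array on its median moved the median change of all probe sets by 0.21 in iPGCs against somatic cells, by -0.21 in somatic cells against ESCs, by -0.16 in V6.5 iPGCs against ESCs and by 0.45 in Oct4-Gfp iPGCs against somatic cells, and quantile normalization moved the last by 0.14. Under centring, calls higher in iPGCs than in somatic cells rose from 46.1% to 59.7% of all calls. *Ehmt2* against somatic cells, at -0.30 as deposited, became -0.09 (adjusted p = 0.635), while all other genes kept their call in that comparison.

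Other genes of these pathways, from lists chosen by role, moved in both directions. The counts of the lists below are to be read against all genes, of which 33.7% rose and 29.8% fell in iPGCs against somatic cells (63.4% in either direction), and 24.5% rose and 20.9% fell against ESCs (45.4%). Of 8 other PRC2 genes, *Rbbp4* and *Rbbp7* among them, 3 rose and 0 fell in iPGCs against somatic cells, and 1 rose and 1 fell against ESCs. The list's median change was 0.04 and 0.09, near that of all genes (0.07 and 0.04). *Phf19*, which encodes a reader of methylated H3K36, averaged 128 ± 20.9 (SD, n = 2) in ESCs, 85.0 ± 11.5 (n = 4) in iPGCs and 30.3 ± 14.4 (n = 4) on the somatic arrays, so iPGCs were above somatic cells (log2 change 1.19) and below ESCs (-0.51). *Epop*, a PRC2 modulator, was higher than in somatic cells by 1.17 (limma adjusted p = 8.04e-05) and gave -0.41 against ESCs (adjusted p = 0.0570). *Lcor*, whose locus also encodes the PRC2 cofactor PALI1, was higher in iPGCs than in ESCs by 1.51 ± 0.25 (adjusted p = 0.00266) by its brightest probe set. Its probe sets 1443779_s_at and 1455121_at also passed, at 1.73 and 1.15, but 1459928_at did not, at -0.13 (adjusted p = 0.752).

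PRC1, which ubiquitinates histone H2A and binds the product of PRC2, had members called in each direction. Of 18 PRC1 genes tested, 7 rose and 8 fell in iPGCs against somatic cells, with a median change of -0.07, and 6 rose and 2 fell against ESCs. Of all genes, 33.7% rose and 29.8% fell against somatic cells, and 24.5% and 20.9% against ESCs. *Cbx7*, a reader of methylated H3K27, averaged 1107 ± 12.5 in ESCs, 918 ± 128 in iPGCs and 187 ± 29.3 on the somatic arrays, and was 2.21 ± 0.10 higher in iPGCs than in somatic cells (adjusted p = 1.35e-06). *Yaf2* and *Pcgf5*, subunits of variant PRC1, were lower than in somatic cells, by -2.31 (limma adjusted p = 4.67e-06) and -1.24 (adjusted p = 0.000943). By their brightest probe sets they were higher than in ESCs, by 0.85 (adjusted p = 0.00616) and 1.01 (adjusted p = 0.0129). The other *Yaf2* probe set, 1423399_a_at, did not pass against ESCs, at 0.32 (adjusted p = 0.101). For *Pcgf5*, 1429564_at passed at 0.88 (adjusted p = 0.00425) and 1453636_at did not, at 0.66 (adjusted p = 0.125). *Kdm6a*, which encodes another H3K27 demethylase, was higher in iPGCs than in ESCs by 0.41 ± 0.12 (adjusted p = 0.0282) and gave 0.11 against somatic cells (adjusted p = 0.364), where a dimmer probe set, 1427235_at, gave 0.52 (adjusted p = 0.0118).

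Among 13 tested H3K9 methyltransferases and partners, 6 rose and 3 fell in iPGCs against somatic cells, and 4 rose and 3 fell against ESCs, with median changes of 0.35 and 0.25, where 63.4% and 45.4% of all genes passed. *Atf7ip*, which encodes a stabilizing partner of SETDB1, differed between its probe sets, since the brightest was higher than in ESCs by 0.97 ± 0.14 (limma adjusted p = 0.00140) and 1449192_at was lower at -0.53 ± 0.16 (adjusted p = 0.0294). *Prdm16* ranged from 79.3 to 113 in iPGCs and from 1.25 to 13.5 in somatic cells, where it lay below background, and *Mecom* averaged 63.6 in iPGCs and 559 in somatic cells but was below background in ESCs (7.04 to 11.7). No fold is given for these where a group lay below background. The log2 difference of *Mecom* between iPGCs and somatic cells was -2.87 ± 0.20 (adjusted p = 9.21e-06). Of 10 H3K9 demethylases, 4 rose and 2 fell against somatic cells, and 2 rose and 3 fell against ESCs. *Kdm3a* was above its somatic level in iPGCs by 1.05 ± 0.11 and *Phf2* lower at -1.56 ± 0.16, while *Kdm4b* and *Kdm4a* were lower in iPGCs than in ESCs, at -1.43 ± 0.16 and -0.83 ± 0.25.

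Of 14 other arginine methyltransferases and PRMT5 partners, 6 rose and 1 fell in iPGCs against somatic cells, and 4 rose and 5 fell against ESCs, where 63.4% and 45.4% of all genes passed. *Prdm1*, the BLIMP1 gene, averaged 310 ± 24.0 in ESCs, 925 ± 179 in iPGCs and 58.4 ± 23.1 on the somatic arrays. It was higher in iPGCs by 1.51 ± 0.31 against ESCs (limma adjusted p = 0.00662) and by 3.72 ± 0.25 against somatic cells (adjusted p = 8.51e-06), whereas *Prmt5* did not differ detectably between iPGCs and ESCs. *Prmt9* was higher in iPGCs than in somatic cells by both its probe sets, by 0.78 (adjusted p = 0.000692) and 0.50 (adjusted p = 0.00506), but against ESCs the brightest was higher by 0.74 (adjusted p = 0.00554) and 1457301_at lower at -0.88 (adjusted p = 0.00204). *Prmt8*, a membrane-bound arginine methyltransferase, fell from 246 and 335 in ESCs to between 16.5 and 35.1 in iPGCs (adjusted p = 0.000347).

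**Figure D5:**
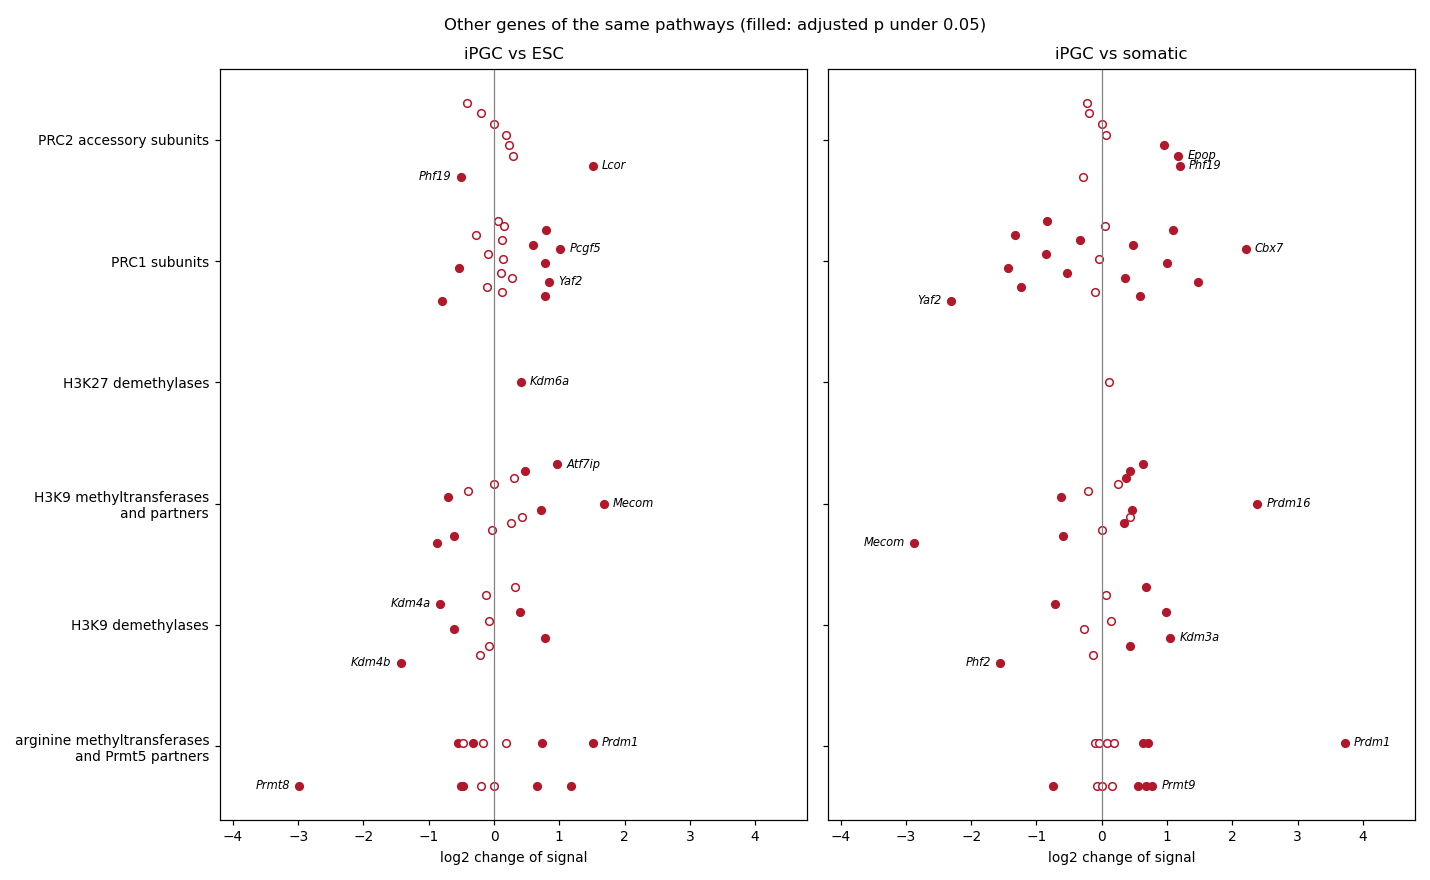
Log2 change of signal (x axis) for the other genes of 6 pathway lists, 1 point per gene, in iPGCs against ESCs and against somatic cells, where filled points have an adjusted p under 0.05 and the genes named in the text are labelled. Points lie on both sides of 0 in each list of more than 1 gene, with *Prdm1* at 3.72 and *Mecom* at -2.87 farthest from 0 against somatic cells.

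The genes whose log2 signal over the 10 arrays was most like that of *Ezh2* were *Heatr1*, *Urb1* and *Ak4*, with Pearson r of 0.994, 0.993 and 0.990. For *Prmt5* they were *Ston2*, *Fam118b* and *Zbtb8b* (0.964, 0.961 and 0.961), for *Ehmt1* *Npn2*, *Maged2* and *Wnt4* (0.972, 0.961 and 0.955), and for *Ehmt2* *Cacng8*, *Nab2* and *Manbal* (0.949, 0.947 and 0.941). Among the 10 genes, *Prmt5* and *Ehmt1* were opposed (r = -0.915), as were *Ehmt1* and *Ezh1* (-0.932), while *Ehmt1* and *Ehmt2* had an r of 0.500. These correlations describe 10 arrays of 3 cell types, which share the differences between cell types and the scaling of the arrays.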

How the data were processed

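For each of 10 arrays the deposited file gives signal intensity per probe set, not logged, which per the labels the authors computed with MAS5 (version not given in the sources used here). The paper's methods name D-Chip instead, and those values were not used here. RNA had been amplified before labelling. The log2 of the intensity plus 14.8, the 25th percentile of the deposited table, was used. Of 45101 probe sets, 64 controls were left out, and a probe set was tested if at least 2 arrays held it above their median. The 5 groups were compared in 1 limma fit (limma 3.58.1, R 4.3.3) with 5 residual degrees of freedom and 2.92 from the prior. Benjamini-Hochberg adjustment covered all 26368 probe sets. Fold changes are on the offset scale. The main fit was tested on simulated data for the comparisons between cell types over both lines and between iPGCs of the lines. The other comparisons and the alternatives were not simulated. The genes, pathway lists, markers and tests were chosen with earlier results of these data known. The text names all 10 genes, up to 4 genes with the largest passing change per list, and the 3 genes most alike to *Prmt5*, *Ehmt1*, *Ehmt2* and *Ezh2*. A list gene is represented by its brightest tested probe set. Symbols came from the platform annotation (34945 probe sets have 1, 932 several and 9160 none). Alternatives were a floor or doubled offset, 3 other filters, quantile normalization, median centring, pooled lines, only the arrays compared, limma-trend, array weights, a replicate block, the *Gapdh* ratio as a covariate, averaged probe sets, each array left out and, added after seeing the data, V6.5 arrays only. The number of arrays limits the precision. Plots were drawn with matplotlib 3.10.9.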

Additional observations from a re-analysis of the deposited data

Results flagged for a closer look

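*Ehmt2* on the second Oct4-Gfp iPGC array lay far from the other iPGC arrays, at 1921 against 2217 to 2238. On the log2 scale used for the test, its gap to the nearest array was 0.938 of the range of the 4 arrays. Dixon's critical value is 0.829. Among the 20 sets of 4 arrays looked at (10 genes in iPGCs and in somatic cells), 1 was so marked, and chance marks about 1 in 20. The same array had the highest *Gapdh* 3′ to 5′ ratio of the 10, at 2.37, and the lowest median signal, at 53.7. Their part in the result was not tested.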

How the results depend on the processing

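Of 2120 values of single genes under an alternative, 1892 kept their direction and their side of the threshold, 139 no longer passed, 12 newly passed, and 75 passed neither as reported nor under the alternative and turned sign (15 with median centring and 11 with the *Gapdh* covariate). The values that passed as reported and turned sign were 2, *Wdr77* in iPGCs against ESCs with averaged probe sets (-0.0098, adjusted p = 0.949) and *Ehmt2* in Oct4-Gfp iPGCs against Oct4-Gfp somatic cells with median centring (0.0231, adjusted p = 0.937). The number of the 10 genes called in iPGCs against ESCs, 5, became 3 with no filter, the background filter, pooled lines, only the arrays compared and averaged probe sets, 1 with median centring, 0 with the *Gapdh* covariate, and 2 to 4 with each array left out. In somatic cells against ESCs it was 8, and became 5 with quantile normalization, 3 with the *Gapdh* covariate, and 4 to 8 with each array left out, lowest without ESC replicate 1. In V6.5 iPGCs against ESCs it was 2, and became 1 with no filter, median centring, only the arrays compared or the *Gapdh* covariate, 4 with limma-trend, and 1 to 2 with each array left out. In iPGCs against somatic cells it stayed at 9 to 10 with each array left out, in V6.5 alone at 6 to 9 and in Oct4-Gfp alone at 6 to 10. Where 1 array of a group is left, it is assumed to vary like the others. With centring, the share of higher calls over all probe sets went from 53.0% to 42.1% in somatic cells against ESCs, from 57.1% to 38.9% in V6.5 iPGCs against ESCs, and from 41.2% to 68.5% in Oct4-Gfp iPGCs against somatic cells (53.1% with quantile normalization). The cause of these changes was not tested.

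Replicate numbers in the labels did not pair the arrays, since deviations of same-numbered arrays correlated between -0.292 and 0.262. With the replicate number as a block, 3 of 10 genes passed in iPGCs against ESCs, *Wdr77* and *Ehmt2* being lost (adjusted p of 0.0701 and 0.0550), and 7 of 10 in V6.5 iPGCs against somatic cells.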
